A study of Mus musculus with 2 samples.

Results

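Within a single clone of wild-type induced myogenic progenitor cells, Myod1 RNA ranged from 0 to 28 UMIs (unique molecular identifiers, each a counted RNA molecule) per progenitor cell, and the cells with most Myod1 were set against those with least. The progenitors were taken from the MyoD-WT library alone. A barcode was kept with at least 1000 genes detected, at most 15% mitochondrial UMIs, at least 20000 UMIs in all, at least 1 Pax7 UMI, at most 1 Myog UMI, and under 0.5% of its UMIs from Acta1, Actc1, Myh3, Mylpf and Myl1 together. Of 15861 barcodes in both libraries, 8191 were MyoD-WT and 3838 of these met every condition. The cells were chosen by the values of Pax7, Myog and the contractile genes and the arms by Myod1, so those values are a description. They were ranked by Myod1 UMIs per 10000 UMIs and divided into 4 bins, each with 25% of the cells. Bin 1 held 959 cells, called Myod1-low here, bins 2 and 3 held 960 cells each, and bin 4 held 959 cells, called Myod1-high.

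The cells came from mouse embryonic fibroblasts, MyoD-WT or MyoD-KO, both with the strain label Myod1tm1Jae. The fibroblasts had been made into induced myogenic progenitor cells by Myf6 overexpression with forskolin, an activator of adenylate cyclase, RepSox, a TGF-beta receptor inhibitor, and CHIR99021, a GSK3 inhibitor. The medium kept forskolin at 5 µM, RepSox at 5 µM and CHIR99021 at 3 µM for both genotypes, with bFGF at 10 ng/mL. Colonies that no longer depended on Myf6 were picked and grown for 4 passages, and 1 clone of each genotype gave 1 library from 12000 cells. With 1 clone per genotype there are no replicates of any group, the cells of a clone are not replicates, and no p-value is given. The intervals printed are exact 95% Poisson intervals and cover counting error only. The 2 libraries shared 14 barcodes, 5 of them among the progenitors ranked here.

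MyoD, the product of Myod1, is a basic helix-loop-helix transcription factor that pairs with E proteins, binds short DNA motifs called E-boxes and commits cells to skeletal muscle. Pax7 marks muscle stem cells, called satellite cells, and the proliferating myoblasts they give rise to, and Myog marks the step into differentiation. Notch signalling and helix-loop-helix repressors such as musculin are known to oppose MyoD in these cells.

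Short stretches upstream of 4 genes are shown because these genes, 3 higher and 1 lower in Myod1-high cells, recur in the results and their promoters hold the motif concerned. The sequences are from RefSeq on build GRCm38.p6, each is read 5′ to 3′ on the strand of its gene, and each lies before the start site. Capitals mark CAGCTG, an E-box that reads the same on both strands and that MyoD is known to bind, or, for Car9, CACGT, the reverse strand of ACGTG, the core of the hypoxia response element. Chrna1 is at chr2:73580347-73580460 on the minus strand, Chrng at chr1:87205626-87205714 on the plus strand, Dll1 at chr17:15377029-15377094 on the minus strand and Car9 at chr4:43506978-43507025 on the plus strand.
Chrna1: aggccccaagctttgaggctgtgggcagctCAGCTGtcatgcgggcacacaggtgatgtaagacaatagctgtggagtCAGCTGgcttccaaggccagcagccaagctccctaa
Chrng: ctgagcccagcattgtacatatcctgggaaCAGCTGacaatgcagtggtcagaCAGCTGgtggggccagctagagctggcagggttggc
Dll1: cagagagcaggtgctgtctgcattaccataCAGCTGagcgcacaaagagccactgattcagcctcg
Car9: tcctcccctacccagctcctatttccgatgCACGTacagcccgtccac

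Among all 32851 promoters of the table, each 300 bases long, 16.3% held CAGCTG and 19.6% held ACGTG on either strand. Among the promoters of the genes at 10 CPM or more in the matched comparison, Myod1 left out, the shares were 13.8% and 27.1%, with 6342 of 7840 such genes matched to the table. A match is a run of letters and not a measured binding site. Within 250 bases before the start site, CAGCTG also stood upstream of named lower genes, among them Cd9, Tm4sf1, Junb and Pdk1. It stood upstream of further higher genes too, such as Fhit and Ccdc141, but not of Rbm24. ACGTG stood upstream of the higher genes Chrna1 and Lef1 as well as of lower genes such as Car9, Mt1 and Nrarp, but not of Pdk1. Neither motif was thus limited to genes of 1 direction. The table held a promoter for 54 of the 73 genes chosen for naming.

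The Myod1 ranking itself had a wide spread. Myod1 averaged 4.21 UMIs per progenitor with a variance of 13.8. The squared deviation from the count expected at each cell's depth, divided by that count, averaged 2.64. Counting alone would give about 1. There were 450 cells without a Myod1 UMI, all of them in bin 1, where counting alone would give 94.1 at one shared level. The median was 1 Myod1 UMI per cell in bin 1, 2 in bin 2, 4 in bin 3 and 8 in bin 4, and the summed counts came to 16.6, 66.6, 122 and 233 counts per 1000000 UMIs (CPM). These values chose the bins and are a description. The bins met with no gap: the last Myod1-low cell had 0.4034 Myod1 UMIs per 10000 and the next cell 0.40412, and the first Myod1-high cell had 1.5647 and the cell below it 1.5645.

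**Figure D1:**
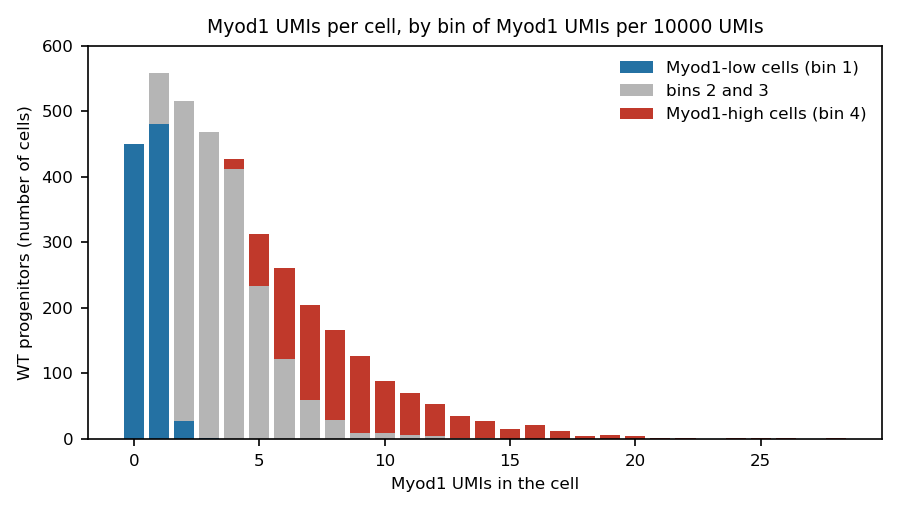
Number of WT progenitors (vertical axis) by Myod1 UMIs in the cell (horizontal axis), as stacked bars coloured by the bin the cell was ranked into. All 450 cells without a Myod1 UMI are Myod1-low, and the Myod1-low cells, with 0 to 3 UMIs, share no UMI count with the Myod1-high cells, with 4 to 28.

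A ranking on so few UMIs also ranks counting error, so each Myod1 UMI was assigned at random to one of 2 parts, the cells were ranked on one part and the other was read out. The held-out part gave 55.6 CPM (52.0 to 59.4) in the cells ranked lowest and 175.5 CPM (169.5 to 181.7) in those ranked highest. The held-out ratio was 3.16 (2.93 to 3.41), where the ranking part had a ratio of 373. Myod1 differed between the arms in UMIs that had no part in the ranking, by much less than in the ranking UMIs.

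Both arms carried the labelled progenitor marker Pax7 at a like level. Pax7 stood at 161, 166, 157 and 156 CPM from bin 1 to bin 4, with at least 1 UMI required in every cell, and at 170 CPM (low) and 149 CPM (high) when matched as described below. Over all 3838 progenitors Pax7 was at 160 CPM and Myog at 8.47 CPM, against 60.2 and 613 CPM in the 4353 other MyoD-WT barcodes. Summed over 6 markers of committed and differentiated muscle, the bins held 113, 123, 141 and 151 CPM, against 2322 CPM in the other barcodes. Myog is among the 6 and was capped by the rule, so part of that gap was fixed by the selection. From bin 1 to bin 4 Tnnt3 went from 42.3 to 71.9 CPM, Tnni2 from 54.8 to 59.0 CPM and Myog from 7.98 to 9.71 CPM. Mymk went from 3.37 to 5.06 CPM, Mymx from 2.50 to 3.22 CPM and Ckm from 2.29 to 2.08 CPM. The share of cells with the single Myog UMI the rule allows went from 26.9% in bin 1 through 30.3% and 31.9% to 37.4% in bin 4.

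The markers of fibroblasts, endothelial and immune cells were near 0 in both arms, and those of smooth muscle were not. The 5 fibroblast markers summed to 1.58 CPM in Myod1-low cells, with Lum at 0, and to 0.460 CPM in Myod1-high cells, with Col1a1 and Lum at 0. The 4 endothelial and immune markers summed to 2.97 and 3.30 CPM, with Cdh5 and Ptprc at 0 in both arms. The 4 smooth muscle markers summed to 676 and 813 CPM, against 1368 CPM in the other MyoD-WT barcodes. Acta2 made up 366 and 525 CPM of this, against 1174 CPM in the other barcodes, and Tagln 307.5 and 287 CPM, above the 191 CPM of the other barcodes. Cnn1 and Myh11, the other markers of the list, were at 0.557 and 1.61 CPM in Myod1-low and at 0.297 and 0.243 CPM in Myod1-high cells. The part of smooth muscle genes in the other differences was not tested.

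Depth and cell cycle moved with Myod1. Median UMIs per cell were 31757 in bin 1, 35959 in bin 2, 36541 in bin 3 and 36612 in bin 4, and mitochondrial UMIs were 6.37%, 6.49%, 6.67% and 6.79%. Mki67, a nuclear protein of cycling cells, was at 157, 170, 182 and 196 CPM, and Top2a, the topoisomerase of dividing cells, at 393, 457, 485 and 551 CPM. By phase score, 52.8% of Myod1-low and 74.3% of Myod1-high cells were called G2M, and 12.1% and 2.71% G1. The arms were therefore also compared within strata of Mki67 plus Top2a. Cells with no UMI of either gene were a stratum of their own, and the others were cut into 10 strata. This left 958 cells per arm, 49 of them in each arm without a UMI of either gene. Mki67 was then at 181 CPM (low) and 171 CPM (high), Top2a at 466 and 474 CPM, and median depths were 33760 and 35072 UMIs. Values are over all cells unless given as "matched".

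A gene counted as higher or lower in Myod1-high cells where the arms differed at least 1.5-fold and the higher arm had at least 10 CPM. Of 7881 genes at that level, 120 (1.52%) were higher, Myod1 itself among them, and 274 (3.48%) were lower. When matched, 100 of 7841 genes (1.28%) were higher and 190 (2.42%) lower. Of the 120 higher genes, 95 were also higher when matched, which is 79.2% of the first list and 95% of the second. Of the 274 lower genes, 181 were also lower when matched (66.1% and 95.3%), and no gene was called in opposite directions. The 4 bins were in rising order for 110 of the 120 higher genes (91.7%) and in falling order for 242 of the 274 lower genes (88.3%). The outer bins defined those calls, so the order adds only the place of bins 2 and 3. Matching the arms on UMI count left 88 higher and 222 lower genes, and keeping only cells with no Myog UMI left 105 and 243. The part of mitochondrial share in the differences was not tested, and cells with at most 10% gave 119 and 262. The median log2 ratio over all genes at that level was 0.02, and 0.01 when matched.

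Part of the genes of muscle commitment were higher in Myod1-high cells. Of 22 MyoD target and commitment genes at 10 CPM or more, 8 were higher and none lower (median log2 ratio 0.31), and 7 were higher when matched (median 0.28). The most abundant members in Myod1-low cells went the other way without passing the rule. Igfbp5 was at 588 CPM in Myod1-low and 401 CPM in Myod1-high cells (0.682), and Cdkn1c at 534 and 380 CPM (0.712). Summed, the list was at 2456 CPM in Myod1-low and 2388 CPM in Myod1-high cells. The 8 higher genes were Rbm24, Chrna1, Dll1, Chrng, Gadd45g, Arpp21, Hes6 and Musk. Musk, the kinase that organises the neuromuscular synapse, was the one not called when matched.

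Rbm24, an RNA-binding protein that controls muscle splicing, stood at 21.8, 31.2, 46.6 and 66.3 CPM from bin 1 to bin 4. The Myod1-high to Myod1-low ratio was 3.04 (2.80 to 3.31), and 3.27 (3.01 to 3.56) when matched. Each bin lay above the one before it by more than the counting intervals. It was the highest matched ratio of the genes at 20 CPM or more that the rule had not used.

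The acetylcholine receptor of embryonic muscle was represented by several subunits. Chrna1, its alpha subunit, was at 19.5, 28.7, 32.3 and 42.4 CPM, a ratio of 2.17 (1.98 to 2.39; matched 2.11). Chrng, its embryonic gamma subunit, was at 8.81, 11.8, 13.1 and 16.1 CPM, a ratio of 1.83 (1.59 to 2.12; matched 1.66). Chrnd, the delta subunit, was at 29.6 CPM in Myod1-low and 30.9 CPM in Myod1-high cells and was not called. Rapsn, which clusters the receptor, was at 41.9 and 45.8 CPM and was not called either. The subunits thus did not move as a block.

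Contractile genes that the selection had not used were higher in part. Of 19 such sarcomere genes, 5 were higher and none lower (median log2 ratio 0.34), and the same number held when matched (median 0.39). Ttn, the giant spring protein titin, was at 42.3, 55.9, 72.7 and 81.7 CPM, a ratio of 1.93 (matched 1.90, but a log2 ratio of -0.24 in the 62 matched cells per arm called G1). Mybpc1, the slow myosin-binding protein C, was at 25.5, 38.8, 45.4 and 54.6 CPM, a ratio of 2.14 (matched 1.89). Tnnt3, fast troponin T, was at 42.3, 52.1, 66.8 and 71.9 CPM, a ratio of 1.70 (matched 1.65). Smyd1, a muscle methyltransferase, went from 5.6 to 10.3 CPM, and Myh8, perinatal myosin heavy chain, from 12 to 18.7 CPM. The most abundant of the list, Tpm1, a tropomyosin, was at 680 and 968 CPM, a ratio of 1.42 that stayed under the 1.5-fold rule. With only the cells free of Myog UMIs, the list of MyoD targets had a median of 0.17, against 0.31 over all cells, and Rbm24 a matched log2 ratio of 1.48, against 1.71.

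Other genes with the highest matched ratios form no single fixed list. Col25a1, a membrane collagen of developing muscle, was the most abundant of them at 86.3, 148, 205 and 262 CPM (ratio 3.03, 2.90 to 3.16; matched 2.77). Cdk5r1, the activator of the kinase Cdk5, was at 12.6, 19.2, 27.9 and 39.6 CPM (3.13; matched 2.95). Dync1i1, a dynein intermediate chain, was at 6.89, 8.79, 14.9 and 23.2 CPM (3.37; matched 2.84), with 45.9% of its Myod1-high UMIs in the 48 cells richest in it. All these rose through every bin, and their matched and unmatched ratios were close.

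Ankrd1, a muscle ankyrin-repeat protein, was at 26.1, 41.2, 56.5 and 75.3 CPM (2.88; matched 2.50). Dner, a transmembrane protein related to Notch ligands, was at 8.93, 12.4, 17.2 and 25.7 CPM (2.88; matched 2.68). Tnik, a kinase of Wnt signalling, was at 66.6, 87.7, 114 and 131 CPM (1.97; matched 1.95). The rest of the 15 highest were Pknox2, Prkcq, Fhit, Ccdc141 and Stard13, with ratios between 1.94 and 2.28, beside Chrna1, Dll1 and Ttn, whose values stand with their lists. Of 7 Wnt target genes, Lef1, a transcription factor of the pathway, was higher at 25 and 46.2 CPM, as was Rnf43, a feedback inhibitor, at 8.29 and 14.1 CPM.

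**Figure D2:**
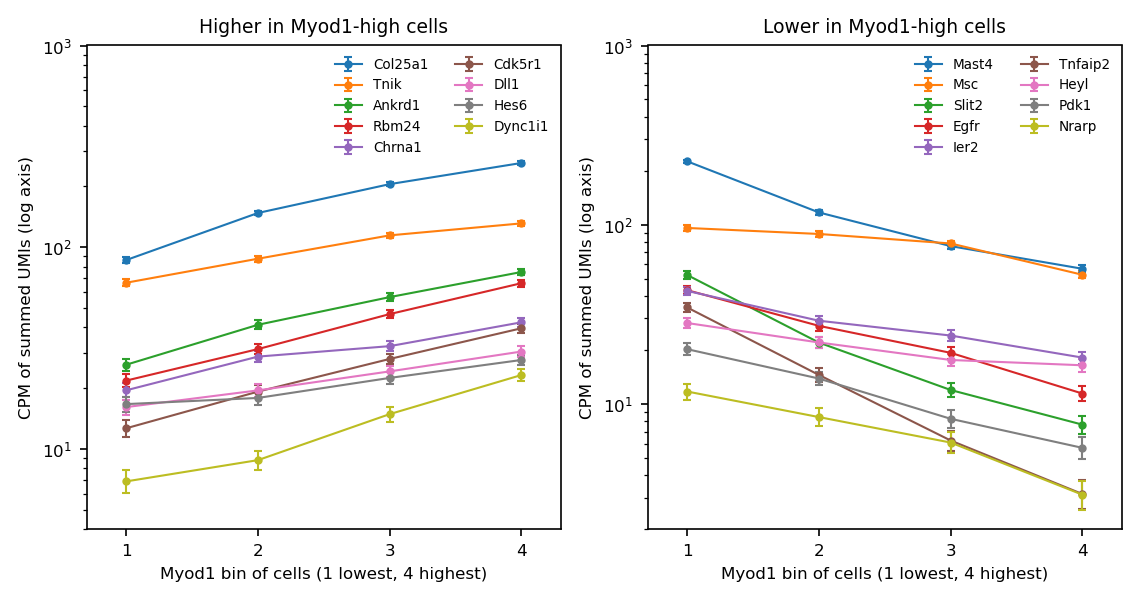
Summed CPM (log axis) of 18 named genes in the 4 Myod1 bins, with exact 95% Poisson intervals as bars. On the left, genes higher in Myod1-high cells climb through each bin, Col25a1 from 86.3 to 262 CPM. On the right, genes lower in Myod1-high cells descend, Tnfaip2 from 34.5 to 3.14 CPM.

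Of 9 other myogenic regulators measured at 10 CPM or more outside the ranking rule, none was called in either comparison (median log2 ratio 0.28, taken over 12). The 3 further ones in that median lay under the minimum and are named after their values were seen: Eya2 was at 0.618 and 2.57 CPM (4.15, 2.55 to 7.11), Vgll2 at 1.73 and 3.46 CPM (2.00, 1.45 to 2.79) and Meox1 at 6.28 and 3.03 CPM (0.483, 0.380 to 0.611). Myf5, the regulator closest to Myod1, was at 27.7, 25, 23.3 and 19 CPM, a ratio of 0.685 (0.620 to 0.757; matched 0.687), just short of the 1.5-fold rule. Its order was opposite to that of Myod1. Myf6, the factor used for reprogramming, was at 0.433 CPM in Myod1-low and 0.352 CPM in Myod1-high cells, from 14 and 13 UMIs. Mef2a and Mef2c, partners of MyoD on muscle genes, were at 85.3 and 40.8 CPM in Myod1-low cells and at 118 and 53.9 CPM in Myod1-high cells, both under the rule. None of the 3 E proteins, the partners of MyoD, was called, and Tcf4 stood at 1089 and 1099 CPM.

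Among 10 inhibitors of helix-loop-helix factors, 3 were lower in Myod1-high cells and none higher, and Hey1 made 4 when matched. Msc, which encodes musculin, a repressor of MyoD-dependent transcription, was at 95.9, 88.7, 78.5 and 52.5 CPM, a ratio of 0.548 (0.517 to 0.580; matched 0.544). Bhlhe40, a repressor that also responds to low oxygen, was at 18.5, 10.2, 7.29 and 5.90 CPM (0.319; matched 0.384). The Id proteins, which hold E proteins away from MyoD, were not called, and Id1 and Id2 were at 217 and 128 CPM in Myod1-low cells and 281 and 184 CPM in Myod1-high cells. The called inhibitors were thus all lower, but the list as a whole was not. Its median log2 ratio was -0.09 (matched -0.12), and its sum was 1243 CPM in Myod1-low and 1408 CPM in Myod1-high cells. Zeb1, the most abundant member, was at 350 and 459 CPM and was not called.

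Notch genes were called in both directions. Dll1, a Notch ligand, was higher in Myod1-high cells at 16.1, 19.5, 24.2 and 30.4 CPM (1.89, 1.70 to 2.10; matched 1.98). Hes6, which counters Hes1, was higher at 16.7, 17.9, 22.5 and 27.6 CPM (1.66; matched 1.65). Some targets of Notch signalling lay the other way. Nrarp, a target and feedback regulator, was at 11.7, 8.44, 6.08 and 3.11 CPM (0.265, 0.213 to 0.328; matched 0.222). Heyl, a target in satellite cells, was at 28.3, 22, 17.6 and 16.4 CPM (0.581; matched 0.568), and Hey1 at 91.1, 88.2, 74.6 and 61.6 CPM (0.677; matched 0.626). Hes1, at 52.5 and 49.3 CPM, was not called, nor were the receptors Notch1, at 75.9 and 56.9 CPM, Notch2, at 45.3 and 57.2 CPM, and Notch3, at 129 and 107 CPM. The ligand Jag1 was lower at 15.8 and 10.5 CPM. Over the 16 Notch genes this made 2 higher and 3 lower (median log2 ratio -0.19), and 2 higher and 5 lower when matched (median -0.26).

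**Figure D3:**
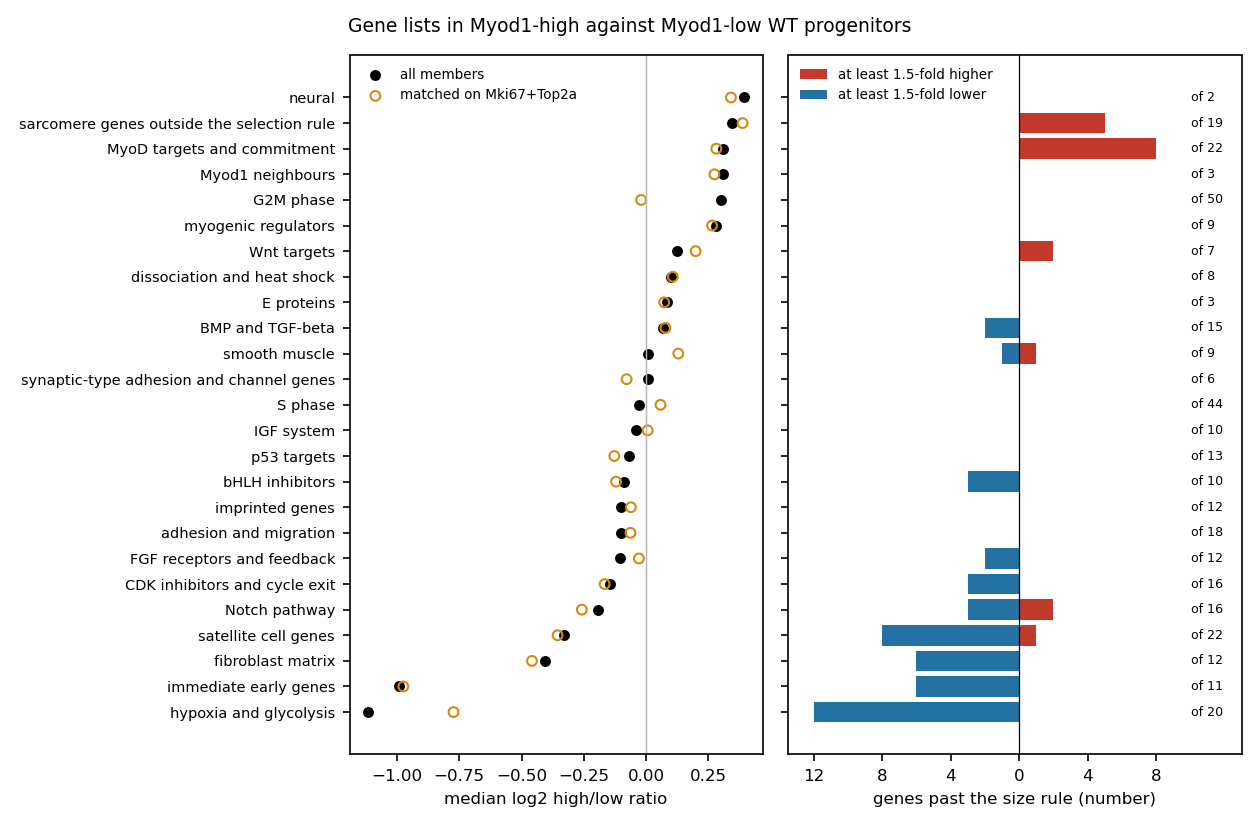
Gene lists by their median log2 ratio of Myod1-high to Myod1-low cells (left, filled points for all cells and open points when matched on Mki67 plus Top2a) and by the number of genes at least 1.5-fold higher or lower, of those at 10 CPM or more (right). Hypoxia and immediate early genes lie lowest, and the G2M list moves from 0.30 to -0.02 when matched. The medians take members averaging at least 1 CPM, so they cover more genes than the bars.

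Of 22 satellite cell genes at 10 CPM or more, 8 were lower in Myod1-high cells and 1 higher (median log2 ratio -0.33). The lists overlap, so their counts are not separate results. Of the 8 lower genes, Heyl, Fos, Btg2, Fgfr1 and Col5a1 are also counted on other lists. Dll1 and Hes6 are counted among both the MyoD targets and the Notch genes. Egfr, the EGF receptor, was at 43.1, 27.2, 19.3 and 11.4 CPM (0.265, 0.237 to 0.296; matched 0.273). Calcr, the calcitonin receptor of quiescent satellite cells, was at 17.7 and 10.1 CPM (0.569), and was not called when matched. The collagens Col5a1, at 47.4 and 25.3 CPM, and Col5a3, at 13.3 and 2.24 CPM, were lower too. Megf10, a receptor of satellite cells, was the member that was higher, at 53.7 and 92.0 CPM (1.71; matched 1.65). Edn3, Sdc4 and Met, of the same list, were not called. Among cells free of Spp1, Slit2 and Car9 UMIs the list median was -0.07, and Col5a3, at -0.22, Fgfr1, at -0.23, and Btg2, at -0.37 on the log2 scale, were under the rule. Spp1, Slit2 and Car9 were themselves lower in Myod1-high cells, and this filter was added after the data were seen. Smaller differences are therefore in part fixed by the filter.

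Immediate early genes, which respond within minutes to signals and to cell handling, were called in 1 direction. Of 11 such genes, 6 were lower in Myod1-high cells and none higher (median log2 ratio -0.99), and 5 of 10 when matched (median -0.97). Ier2 was at 42.7, 29.1, 24.1 and 18.1 CPM (0.424; matched 0.473), Junb at 42.6, 27.3, 21.4 and 18.8 CPM (0.441; matched 0.455) and Egr1 at 128 and 75.9 CPM (0.594; matched 0.571). Fos was at 24.3, 16.2, 10.7 and 11.1 CPM, with the last bins out of order. Jun, at 113 and 121 CPM, was not called. Of 8 heat shock genes, which also mark handling of cells, none was called (median log2 ratio 0.10).

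Cell cycle lists were not called at all. None of 44 S phase genes and none of 50 G2M genes passed the rule. The G2M median was 0.30 over all cells, -0.02 when matched on Mki67 and Top2a, and 0.06 when the arms were matched on UMI count in place of those genes. Of 16 genes on the list of cyclin-dependent kinase inhibitors and cell cycle exit, Ccnd2, Btg2 and Tob2 were lower (median log2 ratio -0.15). Tob2 was not called when matched. Ccnd2, which encodes a cyclin and not an inhibitor, was at 16.2, 1.77, 0.375 and 1.00 CPM. Its Myod1-low UMIs lay in 30 cells.

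**Figure D4:**
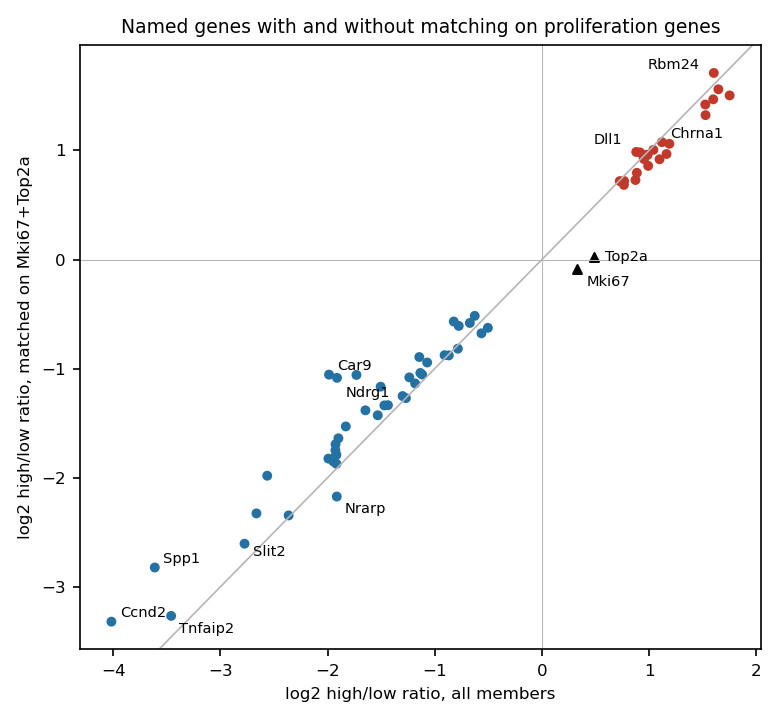
Log2 ratio of Myod1-high to Myod1-low cells for the named genes, over all cells (horizontal) and matched on Mki67 plus Top2a (vertical), with red for genes chosen as higher, blue for lower and triangles for the matching genes. Most points lie near the diagonal, Rbm24 at 1.60 and 1.71, while Car9 moves from -1.99 to -1.05 and Ndrg1 from -1.91 to -1.08.

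The widest differences were in genes lower in Myod1-high cells. Tnfaip2 was at 34.5, 14.5, 6.24 and 3.14 CPM, so that Myod1-high cells held 0.0909 times the level of Myod1-low cells (0.0744 to 0.110; matched 0.104). Slit2, a secreted guidance protein, was at 52.4, 22, 11.9 and 7.65 CPM (0.146; matched 0.164). Mast4, a kinase, was at 226, 117, 75.9 and 56.7 CPM (0.251; matched 0.282). Spp1, the secreted matrix protein osteopontin, was at 76.1, 14.3, 7.71 and 6.22 CPM (0.0818; matched 0.141). The others of the 15 lowest matched ratios were Egfr, Pde1a, Pitpnc1, Stc1, Cd9, S100a6, Tm4sf1, Tgfbr3, Nppc, Syne1 and Sh3kbp1, with unmatched ratios from 0.260 to 0.415. S100a6, a calcium-binding protein, was the most abundant of these at 327, 147, 99.3 and 87.6 CPM.

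Some of these differences sat in few cells. The 48 Myod1-low cells richest in Spp1, 5% of the bin, had 7 to 643 Spp1 UMIs each and held 91.3% of the bin's Spp1, while 816 Myod1-low cells had none. They also held 71.4% of the bin's Ccnd2, 57.3% of its Col5a3, 52.6% of its Col6a3, 48.8% of its Cd9 and 46.5% of its S100a6. The 48 cells were then left out of the Myod1-low arm only, and 7 Myod1-high cells with at least 7 Spp1 UMIs stayed in. A smaller Spp1 difference is therefore fixed by this removal, and the ratios that follow share its one-sidedness. Without the 48 cells the log2 ratio of Spp1 was -0.17, against -3.61 with them, and that of Ccnd2 was -2.29, against -4.02. Their share of other genes was smaller, at 33.4% of Slit2, 20.6% of Tnfaip2, 19.5% of Egfr and 7.11% of Ndrg1, and without them Slit2 was at -2.26, Tnfaip2 at -3.20 and Egfr at -1.68. The 48 cells had a median of 31458 UMIs, close to the 31765 of the other Myod1-low cells, and Pax7 at 139 CPM. All 48 carried a Y-linked UMI, with a median of 5 per cell, against 6 in the other Myod1-low cells. Of the MyoD-KO cells under the same conditions, 6.01% carried one. Y-linked UMIs would also be present in a droplet that mixed cells of both libraries' clones, so they do not settle the origin of the set. Whether another state of the culture or mixed droplets account for this set was not tested.

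Some matrix genes shared with fibroblasts were lower as well. Of 12 on that list, 6 were lower in Myod1-high cells and none higher (median log2 ratio -0.41). That median was -0.18 among cells free of Spp1, Slit2 and Car9 UMIs, a filter with the limit given above, and -1.43 among cells called G1. Col3a1, a fibrillar collagen, was at 139, 97.5, 76.7 and 64.3 CPM (0.461; matched 0.482), Pdgfrb, a PDGF receptor, at 13.6, 7.59, 4.69 and 2.65 CPM (0.194; matched 0.197), and Col6a3 at 18.3, 4.53, 3.46 and 2.89 CPM (0.158; matched 0.199). The defining fibroblast markers at or near 0 are given above.

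Genes of hypoxia and glycolysis made the lowest list. Of 20 at 10 CPM or more, 12 were lower in Myod1-high cells and none higher (median log2 ratio -1.11), and 9 of 19 were lower when matched (median -0.77). Ndrg1, a hypoxia-induced gene, was at 28.7, 17.1, 12.2 and 7.63 CPM (0.266; matched 0.472). Pdk1, a kinase that inhibits pyruvate dehydrogenase, was at 20.2, 13.8, 8.25 and 5.68 CPM (0.281; matched 0.346). Car9, a carbonic anhydrase induced by low oxygen whose promoter motif is printed above, was at 10.8, 5.95, 3.43 and 2.73 CPM (0.252, 0.200 to 0.316). Matched, Car9 was at 8.48 and 4.08 CPM, under the 10 CPM minimum. Of the glycolytic enzymes, Pfkl, a phosphofructokinase, was lower at 57.4 and 26.5 CPM (matched 54.3 and 28.2), as was Tpi1, named after its values were seen, at 360 and 201 CPM. Ldha, at 704 and 531 CPM, and Pgk1, at 529 and 414 CPM, were not called. In Car9 and Ndrg1 few cells carried much of the signal: the 48 Myod1-low cells richest in each gene held 68.6% of the Car9 and 49.7% of the Ndrg1 UMIs.

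The hypoxia genes moved together with the ranking, so the arms were also matched on the summed list, a comparison added after the data were seen. Ndrg1 is on that list, so its log2 ratio of 0.09 in that comparison describes the matching and is not an outcome. Outside the list, Rbm24 was at 1.55, Col25a1 at 1.15, Dll1 at 1.06 and Chrna1 at 0.97. Tnfaip2 was at -2.63, Slit2 at -2.38, Nrarp at -1.95 and Egfr at -1.78. In all, 70 genes were higher and 157 lower. Among cells called G1, 66 per arm, Ndrg1 had a log2 ratio of 0.15 and Car9 of 0.0063.

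The same ranking was made in the MyoD-KO library to see which differences go with Myod1 counts there. Its 3′ tags still held Myod1 RNA, and the deleted stretch of the gene is not named in the labels, so these counts do not check the deletion. Under the same conditions 2579 MyoD-KO cells remained, with 644 per arm, and 630 of the 644 low cells had no Myod1 UMI. Held-out Myod1 was at 32.8 CPM (29.7 to 36.1) in the low and 84.4 CPM (79.4 to 89.5) in the high arm, a ratio of 2.57 (2.30 to 2.89). Of 8541 genes at 10 CPM or more, 129 (1.51%) were higher and 67 (0.784%) lower.

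Some genes were called alike in both libraries. Of the 120 genes higher in MyoD-WT, 78 reached 10 CPM in MyoD-KO and 5 were higher there (6.41% of those 78, 4.17% of the MyoD-WT list and 3.88% of the MyoD-KO list), namely Myod1, Dner, Slc24a3, Nkain3 and Pdzrn3, the last 3 named for this overlap. Dner was at 5.10 and 13.5 CPM in MyoD-KO. None of the 19 MyoD target genes measured in MyoD-KO was called, and Rbm24 was at 16.3 and 18.1 CPM, Chrna1 at 9.40 and 9.04 CPM and Col25a1 at 37.6 and 43.7 CPM. Of the 274 genes lower in MyoD-WT, 254 reached 10 CPM in MyoD-KO, where 13 were lower (5.12% of those 254, 4.74% and 19.4% of the lists) and 32 were higher (12.6%, and 11.7% and 24.8% of the lists). The shares of all MyoD-KO genes called are the 1.51% higher and 0.784% lower given above, and Myod1 ranked the cells in both libraries. Among the 13 were Nrarp, at 17.8 and 10.6 CPM, Msc, at 27.1 and 15.5 CPM, Pdgfrb, at 14.7 and 6.88 CPM, and Spp1, at 3477 and 687 CPM.

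Hypoxia and glycolysis genes stood on opposite sides in the 2 libraries. In MyoD-KO, 19 of 23 were higher in the Myod1-high cells and none lower (median log2 ratio 1.11). Ndrg1 was at 9.01 CPM in MyoD-KO low and 101 CPM in MyoD-KO high cells, Car9 at 5.14 and 76.0 CPM, and Pdk1 at 12.1 and 40.0 CPM. All of the 20 list genes at 10 CPM in MyoD-WT had a log2 ratio below 0 there and above 0 in MyoD-KO. Mitochondrial UMIs were 8.04% in the low and 6.40% in the high arm of MyoD-KO, the reverse order of MyoD-WT. With 1 library per genotype, the genotype, the clone and its culture cannot be told apart.

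**Figure D5:**
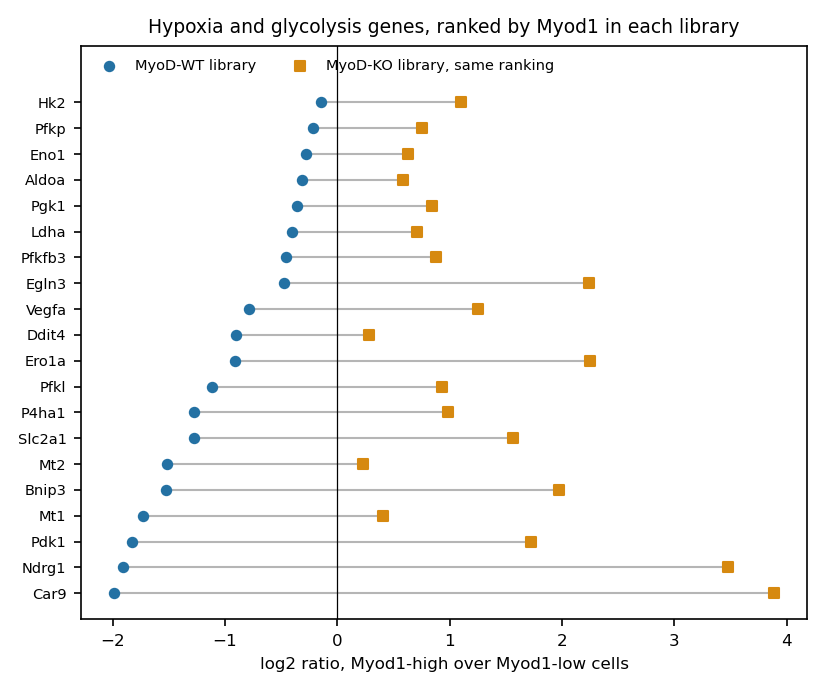
Log2 ratio of Myod1-high to Myod1-low cells for the 20 hypoxia and glycolysis genes at 10 CPM or more in MyoD-WT (circles), joined to the same gene's ratio in MyoD-KO (squares). Circles lie left of 0 and squares right of 0 for each gene, with Car9 at -1.99 and 3.89.

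Few of the remaining lists had called genes. Fgfr1, an FGF receptor, at 75.4 and 47.3 CPM, and Dusp6, a feedback phosphatase, at 10.9 and 6.14 CPM, were lower and were the only called members of 12 FGF genes, and neither was called when matched. Of 15 BMP and TGF-beta genes, Tgfbr3 and Ltbp1 were lower. None was called of 13 p53 targets, 10 IGF genes, 12 imprinted genes, 18 adhesion genes, 2 neural genes or 3 neighbours of Myod1 on its chromosome. St6galnac3 was lower when matched, at 92.7 and 60.1 CPM, the only one of 6 synaptic-type genes. Of 9 smooth muscle genes, Synpo2 was higher, at 34.8 and 69.3 CPM, and Cald1 lower, at 68.8 and 24.3 CPM. Among cells free of Spp1, Slit2 and Car9 UMIs, a filter with the limit given above, the log2 ratio of Cald1 was 0.0307, that of Col6a3 0.33 and that of Ccnd2 1.91. Over all cells Ccnd2 had only 37 UMIs in the Myod1-high arm, at 1.00 CPM, so its ratio under this filter rests on few UMIs.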

How the data were processed

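Libraries were 3′ tag libraries of the 10x Genomics v3.1 chemistry, per the labels' protocols. The authors deposited matrices of raw UMI counts, genes by barcodes, and their headers name Cell Ranger 7.2.0. Per the submitters' processing notes, GRCm39 and Seurat were used, with no role stated, and the annotation release is not given in the sources used here. The files list 25906 genes, with totals of 285232252 UMIs (MyoD-WT) and 282739488 UMIs (MyoD-KO). Promoters come from RefSeq on GRCm38.p6, another build, so no coordinate is tied to the counts. Counts were summed over the cells of an arm and scaled to 1000000 UMIs (CPM), in Python 3.11 with scipy 1.17.1, and ratio intervals are conditional on the summed count. There were 18 symbols carried by several identifiers, which were not merged.

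The cells and the 26 gene lists (470 of 477 genes are in the files) were chosen with earlier results of these data known. Genes are named by this rule: Myod1, Pax7, Myf5, Myf6, Myog, Pax3, Mki67 and Top2a, the 15 highest and 15 lowest matched ratios at 20 CPM or more (without mitochondrial, ribosomal protein, Gm-number and Rik genes and those the selection used), and up to 4 called members per list. Other list members are named beside them. List medians take members whose mean over both arms is at least 1 CPM. Phases were scored on the full counts of each cell scaled to a common total, and doublets with Scrublet, both in scanpy 1.11.5. The phase scores were thus not made at equal depth, and thinning cells to 20000 UMIs was an alternative only. Scrublet called 2 of 7318 MyoD-WT cells (0.0273%), too few to be relied on, so removing the 6% highest scores is an alternative; whether doublets had been removed earlier is not stated in the labels. TMM scaling is from edgeR 4.0.16. The calling was checked on simulated counts.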

Additional observations from a re-analysis of the deposited data

Results flagged for a closer look

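For 4 named genes the Myod1-high to Myod1-low contrast went in opposite directions in the 2 libraries, with the 1.5-fold rule passed in both. The log2 ratio of Car9 was -1.99 in MyoD-WT and 3.89 in MyoD-KO, that of Ndrg1 -1.91 and 3.48, that of Pdk1 -1.83 and 1.73, and that of Bhlhe40 -1.65 and 0.63. Car9, Ndrg1 and Pdk1 are hypoxia and glycolysis genes, and Bhlhe40 is known to respond to low oxygen. The difference was not tested, since each genotype has 1 library.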

How the results depend on the processing

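No paired analysis was possible because each genotype has 1 library and the labels carry no replicate numbers. The counts of genes higher and lower, over all cells and then matched, followed the fold, the CPM minimum and the width of the arms. They were 498 and 642, then 301 and 538 with a laxer fold rule of 0.32 on the log2 scale, and 28 and 102, then 20 and 64 at 2-fold. They were 301 and 985, then 262 and 810 with a minimum of 1 CPM, and 41 and 60, then 33 and 49 with 50 CPM. With arms of 10% of the cells they were 288 and 566, then 195 and 404, and with arms of 50% they were 37 and 91, then 31 and 67. G1-called cells left 66 and 62 cells per arm, with 548 and 1060, then 531 and 1080. Matched on hypoxia genes they were 70 and 157, then 65 and 154, and without Spp1, Slit2 or Car9 UMIs 103 and 111, then 82 and 108, both added after the data were seen. The other 11 alternatives stayed within 1.5 times of the counts given.

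Of the named genes called, Myod1 left out, 57 of 63 kept their direction, and 36 stayed past 1.5-fold, in each of the other scalings or choices of cells that gave a value (14 to 16 per gene), and when matched 56 and 37 of 61. In G1-called cells the log2 ratio was -0.0608 for Rnf43, 0.0063 for Car9 and 0.15 for Ndrg1, and matched -0.24 for Ttn and 0.12 for Ndrg1. Matched on hypoxia genes, a list that holds Ndrg1 itself, Ndrg1 was at 0.0870. Without Spp1, Slit2 or Car9 UMIs Ccnd2 was at 1.91 (matched 2.09), Col6a3 at 0.33 (0.53) and Cald1 at 0.0307 (0.10). The limit of that filter given above holds here too, and the Ccnd2 values rest on few UMIs. The causes were not tested. Depth limits the ranking, which rests on 0 to 28 Myod1 UMIs per cell.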
